A study of Mus musculus with 17 samples.

Results

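The genes described are 10 Polycomb and H3K27 modifier genes of the mouse, out of 41388 genes in the count tables. They were chosen by name: Ezh1, Ezh2, Eed and Suz12 of Polycomb repressive complex PRC2, Ring1, Rnf2, Bmi1 and Kdm2b of PRC1, and the H3K27 demethylases Kdm6a and Kdm6b. RNA-seq read counts of all 10 were available in each of 17 libraries of cultured bone marrow macrophages (BMMs) and pre-osteoclasts (preOCs). All 10 passed the filter on low counts in every comparison, with 672 to 5687 reads per gene and library.

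The libraries form 4 groups. Every mouse carried loxP sites in Bap1. Bap1LysM mice also carried Cre recombinase in the lysozyme M gene, Lyz2, which is active in myeloid cells, and the Bap1flox littermates had no Cre. The preOCs, labelled OC, came from 20-week-old male mice, 6 Bap1flox and 5 Bap1LysM, and had received M-CSF and RANKL at 100 ng/ml for 24 h. The BMMs were 3 Bap1flox and 3 Bap1LysM libraries without RANKL, whose mice have no age in the labels. By the study's methods, BMMs are also grown with M-CSF, from medium conditioned by cells that make it. Bap1flox preOCs carry replicate numbers 1 to 6 and Bap1LysM preOCs 1, 2, 4, 5 and 6, while BMMs of each genotype carry 1 to 3. The form of the name changes between numbers 3 and 4, and the libraries on either side of that change are called library sets. Whether the BMM libraries came from separate mice, or from the mice of the same-numbered preOCs, is not given in the sources used here, so p-values for BMMs measure the spread between these libraries, which may be technical.

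PRC2 places methyl groups on lysine 27 of histone H3 (H3K27), a mark of silenced genes. EZH1 and EZH2 are its alternative catalytic subunits. EED reads the mark, and SUZ12 holds the complex together. PRC1 places ubiquitin on histone H2A through its ligases RING1 and RNF2, and BAP1, with ASXL proteins, takes that ubiquitin off. KDM6A and KDM6B remove H3K27 methylation. In macrophages given RANKL, EZH2 is known to silence inhibitors of osteoclast formation such as Irf8, while demethylation of Nfatc1, the master transcription factor of osteoclasts, accompanies differentiation.

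The count totals were 37967542 to 61369441 per library. The osteoclast marker list summed to 6052 to 16470 CPM (counts scaled to the library total) in preOCs and to 238.1 to 383.6 CPM in BMMs, as the labels have it. Lyz2, which Cre disrupts, stood at 45.3% of the Bap1flox mean in Bap1LysM BMM library 1 and at 79.7% in Bap1LysM preOC library 1, against 0.148% to 0.473% in the other Bap1LysM libraries. The Bap1LysM libraries numbered 1 therefore stand apart from the others, and values of the 10 genes are also given without them. The study's methods give the Cre genotype as heterozygous, which leaves an intact Lyz2 allele, so the values near 0 also differ from the stated genotype. Which libraries carry the labelled genotype cannot be settled from these counts. Total Bap1 reads were 82.7 ± 5.91 CPM in Bap1flox preOCs (SD, n = 6) and 71.5 ± 9.80 CPM in Bap1LysM preOCs (SD, n = 5), with an edgeR adjusted p of 0.18. Counts per gene do not separate the deleted exons, so Bap1 checks the labels only weakly. Mitochondrially encoded genes held 0.481% to 1.074% of reads in numbers 1 to 3 and 2.364% to 5.264% in numbers 4 to 6.

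Across the libraries the subunits differed in abundance per length. RPKM, which divides reads by exon length and library total, allows such a comparison between genes. In Bap1flox BMMs Ezh1 had the highest RPKM of the 10 genes, 12.7 ± 1.28, followed by Eed with 11.7 ± 0.728 (both SD, n = 3). Ezh2 had the lowest, 2.97 ± 0.674 RPKM. In Bap1flox preOCs the order was another: Eed was highest with 18.8 ± 0.685 RPKM and Suz12 was next with 14.4 ± 1.34 RPKM (both SD, n = 6). Ezh2 and Ezh1 were then at 6.98 ± 0.765 and 6.57 ± 0.391 RPKM, within their spread of each other. Kdm2b was lowest in preOCs, with 3.31 ± 0.256 RPKM in Bap1flox and 2.33 ± 0.218 RPKM in Bap1LysM.

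**Figure D1:**
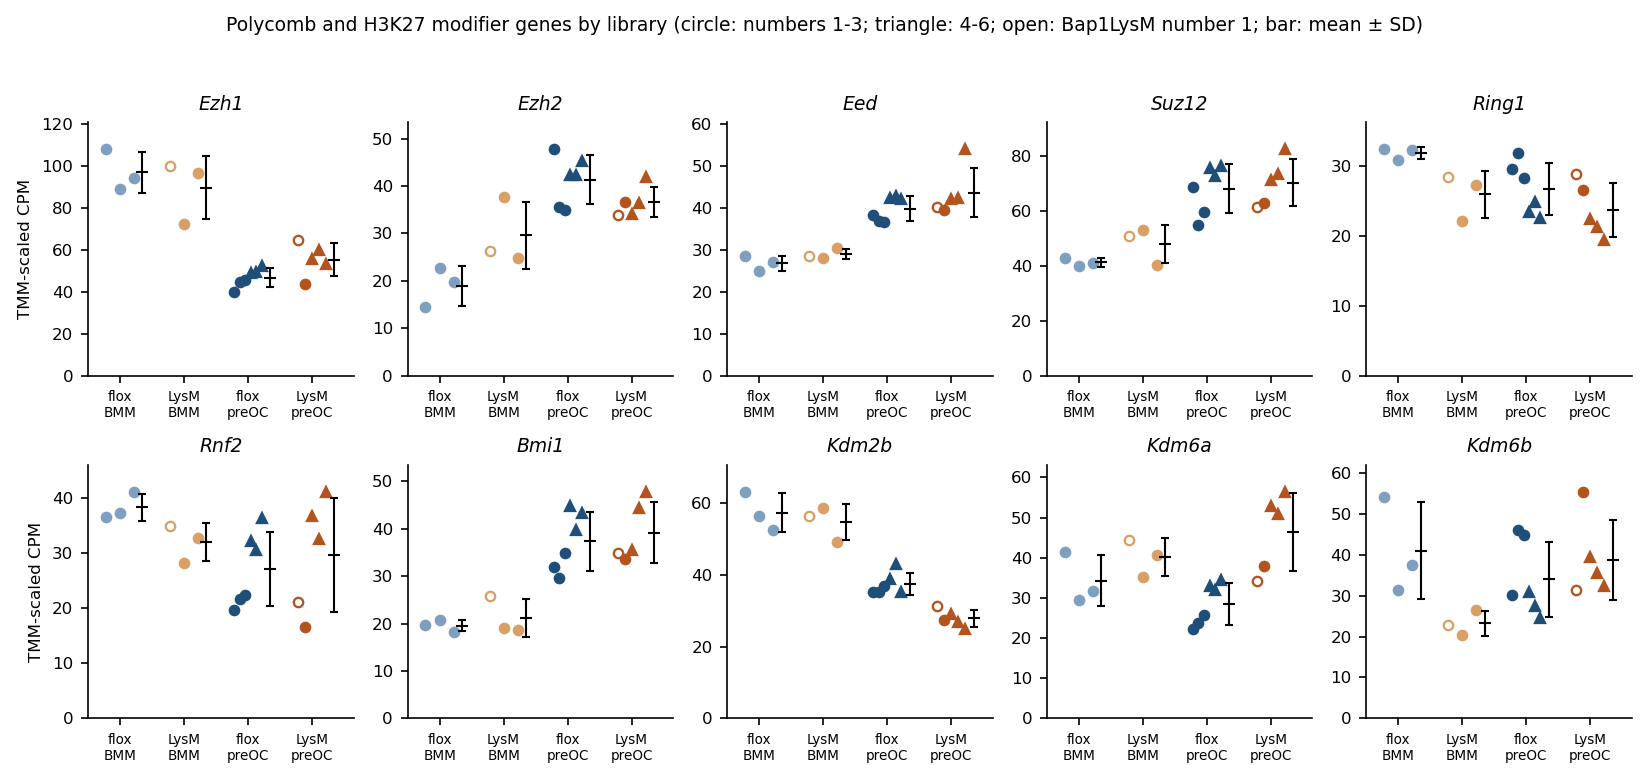
TMM-scaled CPM of each of the 10 genes (vertical axis, from 0) in the 17 libraries, grouped as Bap1flox and Bap1LysM BMMs and preOCs, with the mean and SD of each group beside its points. Ezh1 and Kdm2b sit lower and Eed, Suz12 and Bmi1 higher in all preOCs than in all BMMs, and Kdm2b sits lower in all 5 Bap1LysM preOCs than in all 6 Bap1flox preOCs.

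More of the 10 genes differed between BMMs and preOCs than between the genotypes. The response to RANKL was measured in Bap1flox cells within numbers 1 to 3, the only library set with both BMMs and preOCs, as 3 preOC against 3 BMM libraries. Of the 10 genes, 4 were higher and 4 were lower in preOCs by the edgeR quasi-likelihood test at an adjusted p under 0.05. Over all 13412 genes tested, 64.6% were called, 31.7% higher and 32.9% lower, so the count of members is near what most genes did. The BMM and preOC libraries did not overlap for those same 8 genes, against 71.6% of all genes tested. Within PRC2, Ezh1 fell and Ezh2 rose. In bulk RNA, fewer cells that express a gene and less RNA per cell cannot be told apart. CPM below are scaled by TMM factors, which correct for library composition.

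Ezh1 (ENSMUSG00000006920, GRCm38, minus strand of chromosome 11, 101191115 to 101226463) was at 108, 89.1 and 94.1 CPM in Bap1flox BMMs 1, 2 and 3 and at 40.0, 44.5 and 45.5 CPM in preOCs 1, 2 and 3. Each preOC was below each BMM. The log2 fold change was -1.19 ± 0.09 (SE), with an edgeR adjusted p of 5.5e-05.

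Ezh2 (ENSMUSG00000029687, minus strand of chromosome 6, 47530274 to 47595341) was at 14.4, 22.8 and 19.7 CPM in Bap1flox BMMs and at 47.8, 35.6 and 34.9 CPM in preOCs. The lowest preOC was above the highest BMM. Its log2 fold change was 1.04 ± 0.20 (SE) and its edgeR adjusted p was 0.0029. Both catalytic subunits therefore passed the test, in opposite directions.

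Since Ezh1 and Ezh2 moved in opposite directions, sequence upstream of a RefSeq start of each gene is shown. Both stretches are from the RefSeq promoter table for GRCm38.p6, read 5′ to 3′ on the minus strand, and capitals mark CCAAT or its complement ATTGG, the only words of those searched that lie in the stretches shown.
Ezh1, chr11:101226464-101226713, bases 250 to 1 before the start: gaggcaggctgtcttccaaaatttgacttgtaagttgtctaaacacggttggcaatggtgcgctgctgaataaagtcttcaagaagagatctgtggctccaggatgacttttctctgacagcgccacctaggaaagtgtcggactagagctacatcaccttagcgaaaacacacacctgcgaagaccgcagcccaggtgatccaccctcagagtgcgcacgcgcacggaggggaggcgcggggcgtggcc
Ezh2, chr6:47595059-47595183, bases 153 to 29 before the start: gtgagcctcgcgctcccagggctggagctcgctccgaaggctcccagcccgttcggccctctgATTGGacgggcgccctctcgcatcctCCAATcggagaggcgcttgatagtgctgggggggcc
The Ezh2 stretch is shorter because annotated exons border it on each side, and it lies inside the gene's annotated span, between alternative first exons. The words searched, on both strands, in the 250 bases before a start were E2F words (TTTGGCGC, TTTGCCGC, TTTCGCGC or TTTCCCGC), TGANTCA of AP-1, the CCAAT box, GAGGAA of the PU box and TGACGTCA of the CRE. The table held 9 of the 10 genes, all but Kdm6b, and no matches of different words overlapped in the 9. CCAAT was found before Ezh2, Suz12 and Kdm2b, 3 of 9, and before 37.5% of 27025 genes. An E2F word was found before Suz12 alone of the 9 and before 2.16% of all genes, GAGGAA before Ezh2, Eed and Kdm2b and before 25.9%, AP-1 before none of the 9 and 7.82%, and the CRE before none of the 9 and 1.77%. A match is a description of the letters and not of binding.

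The shared PRC2 core also rose with RANKL. Eed (ENSMUSG00000030619, chromosome 7, 89954656 to 89980983, minus strand) went from 28.5, 25.0 and 27.1 CPM in Bap1flox BMMs to 38.3, 37.0 and 36.7 CPM in preOCs, a log2 fold change of 0.45 ± 0.07 (SE) with an edgeR adjusted p of 0.0015. Suz12 (ENSMUSG00000017548, chromosome 11, 79993106 to 80034123, plus strand) went from 42.9, 39.8 and 41.1 CPM to 68.7, 55.0 and 59.6 CPM, with a log2 fold change of 0.54 ± 0.10 (SE) and an adjusted p of 0.0021. For both genes the lowest preOC was above the highest BMM.

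PRC1 subunits moved in both directions. Rnf2 (ENSMUSG00000026484, chromosome 1, 151458004 to 151500955, minus strand), the main H2A ubiquitin ligase, was at 36.5, 37.3 and 41.1 CPM in Bap1flox BMMs and at 19.7, 21.7 and 22.3 CPM in preOCs 1 to 3. Its log2 fold change was -0.87 ± 0.08 (SE), with an edgeR adjusted p of 0.0001. Its paralogue Ring1 (ENSMUSG00000024325, chromosome 17, 34020792 to 34024680, minus strand) was at 30.8 to 32.4 CPM in BMMs and 28.3 to 31.8 CPM in preOCs, and the log2 fold change of -0.11 ± 0.07 (SE) did not pass the test (adjusted p = 0.20).

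Bmi1 (ENSMUSG00000026739, chromosome 2, 18677018 to 18686629, plus strand), the subunit of canonical PRC1 that pairs with the ligase, was at 19.7, 20.7 and 18.3 CPM in Bap1flox BMMs and at 32.0, 29.6 and 34.9 CPM in preOCs. All 3 preOCs were above all 3 BMMs, with a log2 fold change of 0.69 ± 0.09 (SE) and an edgeR adjusted p of 0.0005. Kdm2b (ENSMUSG00000029475, chromosome 5, 122870668 to 123015080, minus strand), which brings a variant PRC1 to CpG islands, was at 63.1, 56.3 and 52.6 CPM in BMMs and at 35.3, 35.3 and 36.8 CPM in preOCs. It fell by 0.70 ± 0.08 (SE) on the log2 scale (adjusted p = 0.00031).

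Of the demethylases, Kdm6a, also called UTX (ENSMUSG00000037369, chromosome X, 18162575 to 18279936, plus strand), was at 41.5, 29.5 and 31.8 CPM in Bap1flox BMMs and at 22.3, 23.7 and 25.8 CPM in preOCs 1 to 3. Its log2 fold change was -0.54 ± 0.14 (SE) with an edgeR adjusted p of 0.011. Kdm6b, also called JMJD3 (ENSMUSG00000018476, chromosome 11, 69398508 to 69413675, minus strand), scattered widely in both groups, at 54.2, 31.4 and 37.5 CPM and at 30.1, 46.1 and 44.8 CPM. The groups overlapped, and the log2 fold change was -0.05 ± 0.24 (SE, adjusted p = 0.86).

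All 8 calls held with each library left out in turn, and they are not changed by the Bap1LysM libraries numbered 1, which this comparison does not use. When all 17 libraries were fitted together, so that preOCs 4 to 6 entered, Rnf2 (-0.50, adjusted p = 0.094) and Kdm6a (-0.27, adjusted p = 0.22) no longer passed the edgeR test.

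**Figure D2:**
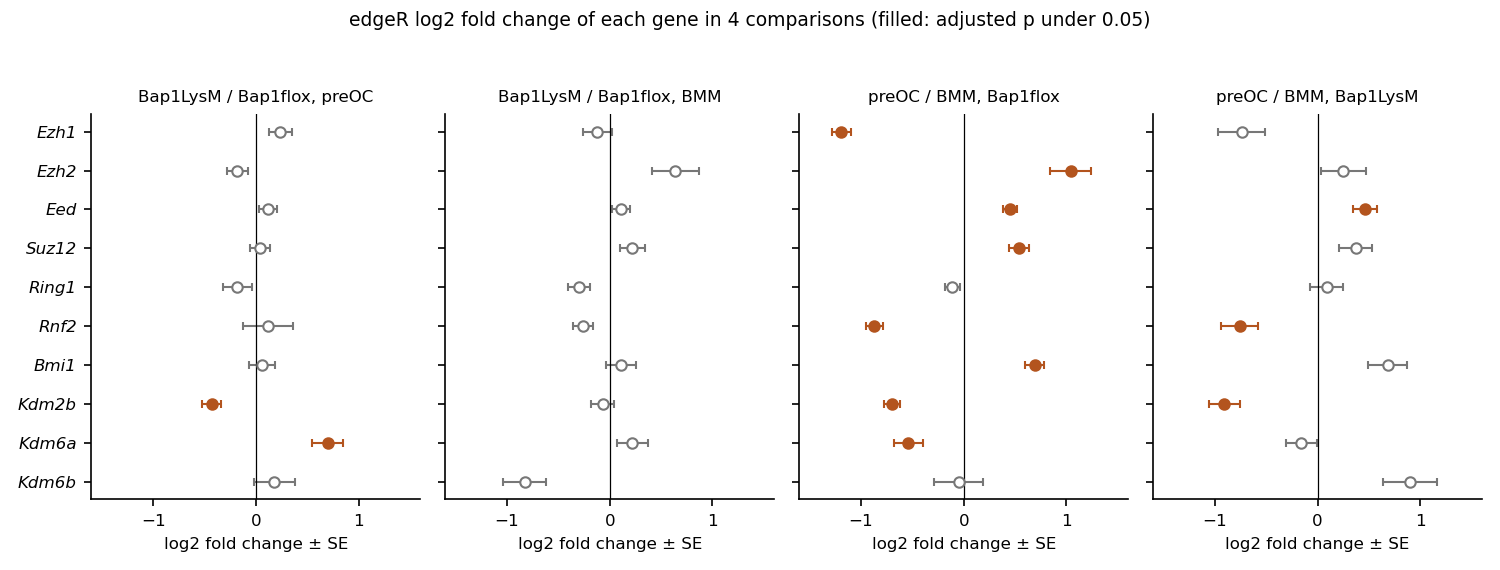
The edgeR log2 fold change (horizontal axis, with its SE) of each of the 10 genes in 4 comparisons: Bap1LysM over Bap1flox in preOCs and in BMMs, and preOC over BMM in each genotype, filled where the adjusted p is under 0.05. Filled points number 2, 0, 8 and 3, and the largest of them are Ezh1 at -1.19 and Ezh2 at 1.04 in Bap1flox cells.

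The genotype comparison in preOCs asks whether loss of the H2A deubiquitinase in myeloid cells goes with other levels of the enzymes that write and erase these marks. Kdm2b was lower and Kdm6a was higher in Bap1LysM preOCs, and 8 of the 10 genes did not pass the test. Over all 12919 genes tested, 15.8% were called, 7.12% higher and 8.67% lower. With upper-quartile in place of TMM factors, 696 genes were higher and 1402 lower, against 920 and 1120. The median log2 fold change was 0.09 over the 10 genes and -0.01 over all genes tested.

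Kdm2b ranged from 35.2 to 43.0 CPM in the 6 Bap1flox preOCs, with a median of 36.0, and was at 31.2, 27.3, 29.0, 26.9 and 24.8 CPM in Bap1LysM preOCs 1, 2, 4, 5 and 6. The highest Bap1LysM library was below the lowest Bap1flox library, a separation seen in 9.68% of all genes tested. The log2 fold change was -0.43 ± 0.09 (SE), with an edgeR adjusted p of 0.0078. Kdm2b was lower within numbers 4 to 6 (-0.54, adjusted p = 0.0044) and stood at -0.29 within numbers 1 to 3 (unadjusted p = 0.044, adjusted p = 0.27), where 0 of 13120 genes passed the edgeR test and 2337 had an unadjusted p under 0.05. Without Bap1LysM preOC 1 it was -0.48 (adjusted p = 0.0028). The RefSeq table gives Kdm2b 4 starts in 2 regions of the gene, and counts per gene do not tell which transcripts fell.

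Kdm6a ranged from 22.3 to 34.4 CPM in Bap1flox preOCs, with a median of 28.8, and was at 34.3, 37.9, 53.0, 50.8 and 56.4 CPM in Bap1LysM preOCs 1, 2, 4, 5 and 6. The genotypes touched only where Bap1LysM library 1 met the highest Bap1flox library, number 6. Its log2 fold change was 0.70 ± 0.15 (SE), with an edgeR adjusted p of 0.011. Within numbers 1 to 3 the Bap1flox libraries were at 22.3 to 25.8 CPM and the Bap1LysM libraries at 34.3 and 37.9 CPM (log2 fold change 0.59, unadjusted p = 0.0021, adjusted p = 0.17). Within numbers 4 to 6 they were at 31.9 to 34.4 and 50.8 to 56.4 CPM (0.68, adjusted p = 0.00052). The genotypes were thus apart inside each library set, and numbers 4 to 6 were higher in both genotypes. Without Bap1LysM preOC 1 the value was 0.78 (adjusted p = 0.0037).

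Kdm6a lies on the X chromosome. Xist, the RNA of the inactive X, was at most 0.0673 CPM in any library, and Uty, the Y-linked paralogue of Kdm6a, was at 13.9 CPM or more in each. Uty was 18.7 ± 5.67 CPM in Bap1flox preOCs (SD, n = 6) and 28.8 ± 7.54 CPM in Bap1LysM preOCs (SD, n = 5), a log2 fold change of 0.62 that did not pass the edgeR test (adjusted p = 0.080).

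Of the catalytic subunits, Ezh1 ranged from 40.0 to 52.3 CPM in Bap1flox preOCs, with a median of 47.1, and was at 64.5, 43.5, 55.7, 59.8 and 53.2 CPM in Bap1LysM preOCs. The log2 fold change was 0.24 ± 0.11 (SE) with an edgeR adjusted p of 0.15. Ezh2 ranged from 34.9 to 47.8 CPM, with a median of 42.3, in Bap1flox and was at 34.0, 36.7, 34.1, 36.5 and 42.0 CPM in Bap1LysM preOCs (-0.18 ± 0.10, SE, adjusted p = 0.24). For both genes the genotypes overlapped. Of 11 fits with each library left out in turn, Ezh1 passed in 1, without Bap1LysM preOC 2 (0.31, adjusted p = 0.035). Without Bap1LysM preOC 1 it was at 0.17 (adjusted p = 0.24). Ezh1 also passed with voomWithQualityWeights (0.27, adjusted p = 0.0069), which called 54.9% of all genes tested.

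The remaining genes overlapped between the genotypes and did not pass the edgeR test. Eed was 39.9 ± 2.91 and 43.7 ± 5.91 CPM, Suz12 68.0 ± 8.86 and 70.3 ± 8.61 CPM, and Bmi1 37.4 ± 6.23 and 39.2 ± 6.42 CPM in Bap1flox and Bap1LysM preOCs (SD, n = 6 and 5). Rnf2 was 27.1 ± 6.78 and 29.6 ± 10.4 CPM and Ring1 26.7 ± 3.68 and 23.7 ± 3.88 CPM. Their log2 fold changes lay between -0.18 for Ring1 and 0.12 for Eed and Rnf2, with adjusted p from 0.39 to 0.83. Ring1 passed with voomWithQualityWeights (-0.32, adjusted p = 0.014). Kdm6b was 34.0 ± 9.16 and 38.8 ± 9.77 CPM (0.18 ± 0.20, SE, adjusted p = 0.58). With the replicate number as a block, which called 32.8% of all genes tested, Kdm6b was higher in Bap1LysM preOCs (0.29, adjusted p = 0.020), which makes 3 of the 10 genes. It was also higher within numbers 4 to 6 (0.36, adjusted p = 0.036), but it did not pass with library set as a term (0.25, adjusted p = 0.25) or within numbers 1 to 3 (0.10, adjusted p = 0.88).

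Some marker lists moved with genotype in preOCs. The 9 neutrophil markers summed to 62.15 to 180.7 CPM in Bap1flox and to 170.1 to 606.7 CPM in Bap1LysM preOCs, with 6 of 8 tested genes higher, at most 1 of the 9 at 0 in a Bap1flox library and none in a Bap1LysM library. The 7 progenitor markers summed to 7.254 to 17.34 and to 12.46 to 24.83 CPM, with 3 of 5 tested genes higher and none at 0. The 7 B and plasma cell markers summed to 1.996 to 3.975 and to 6.099 to 9.998 CPM, with up to 2 at 0 in a library of each genotype. Only 2 of the 7 were tested. Jchain was higher (log2 fold change 4.01, edgeR adjusted p = 0.00034), and Cd79b did not pass (-0.16, adjusted p = 0.79). The part of the cells that these lists mark in the values of Kdm2b and Kdm6a was not tested. Erythroid markers summed to at most 0.6147 CPM in any library, with 2 to 5 of 7 at 0, and stromal markers overlapped between the genotypes, at 177.4 to 1955 and 98.91 to 1258 CPM. Of the 8 macrophage markers, 2 were higher and none lower (2 lower without Bap1LysM preOC 1), although their sum, in which Lyz2 weighs most, was 10300 to 17770 CPM in Bap1flox and 3707 to 12050 CPM in Bap1LysM preOCs.

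In BMMs the same contrast of genotypes called 0 of the 10 genes by edgeR, 4 of them with an unadjusted p under 0.05, as had 26.2% of all 13028 genes tested. At the adjusted p, 5.32% of all genes were called. The libraries did not overlap for 4 genes, Ezh2 higher and Ring1, Rnf2 and Kdm6b lower in Bap1LysM, against 34.2% of all genes tested. DESeq2 called Kdm6b alone and voomWithQualityWeights none.

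Ezh2 was at 14.4, 22.8 and 19.7 CPM in Bap1flox BMMs and at 26.2, 37.8 and 24.8 CPM in Bap1LysM BMMs 1, 2 and 3. All Bap1LysM values were above all Bap1flox values, with a log2 fold change of 0.64 ± 0.23 (SE, edgeR unadjusted p = 0.027, adjusted p = 0.14). Kdm6b went the other way, at 54.2, 31.4 and 37.5 CPM and at 22.8, 20.4 and 26.5 CPM, with a log2 fold change of -0.83 ± 0.21 (SE, unadjusted p = 0.0061, adjusted p = 0.070). With the replicate number as a block, which called 16.2% of all genes, both passed, Ezh2 at 0.64 (adjusted p = 0.030) and Kdm6b at -0.79 (adjusted p = 0.029). Without Bap1LysM BMM 1 and without the block they were at 0.72 (adjusted p = 0.17) and -0.82 (adjusted p = 0.14). With each library left out in turn, Ezh2 ranged from 0.42 to 0.79 and Kdm6b from -0.99 to -0.57, and neither passed. The 7 progenitor markers summed to 9.109 to 18.21 CPM in Bap1flox and to 23.55 to 29.92 CPM in Bap1LysM BMMs, without overlap and with none at 0, and 1 of 4 tested, Cd34, was higher (log2 fold change 4.11, adjusted p = 0.016). Their part in the values of Ezh2 and Kdm6b was not tested.

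The ligases were lower by a smaller margin that did not pass the test. Ring1 was at 32.4, 30.8 and 32.3 CPM in Bap1flox and 28.4, 22.1 and 27.3 CPM in Bap1LysM BMMs (-0.30 ± 0.11, SE, edgeR adjusted p = 0.15). Rnf2 was at 36.5, 37.3 and 41.1 CPM and at 34.9, 28.2 and 32.8 CPM (-0.26 ± 0.10, SE, adjusted p = 0.17). Ezh1, Eed, Suz12, Bmi1, Kdm2b and Kdm6a overlapped between the genotypes, with log2 fold changes from -0.12 to 0.22 and adjusted p from 0.30 to 0.70. Kdm2b and Kdm6a, the genes called in preOCs, were 57.4 ± 5.30 and 54.7 ± 4.92 CPM and 34.3 ± 6.35 and 40.1 ± 4.75 CPM in Bap1flox and Bap1LysM BMMs (SD, n = 3).

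In Bap1LysM cells RANKL was compared over 2 preOC and 3 BMM libraries. edgeR called 3 of the 10 genes, against 19.6% of 12998 genes tested. Kdm2b was at 56.4, 58.6 and 49.2 CPM in BMMs and at 31.2 and 27.3 CPM in preOCs 1 and 2 (-0.91 ± 0.15, SE, adjusted p = 0.017). Rnf2 was at 34.9, 28.2 and 32.8 CPM and at 21.1 and 16.6 CPM (-0.76 ± 0.18, SE, adjusted p = 0.035). When all 17 libraries were fitted together, Rnf2 was at -0.10 and did not pass (adjusted p = 0.77). Eed was at 28.5, 28.1 and 30.5 CPM and at 40.3 and 39.6 CPM (0.46 ± 0.12, SE, adjusted p = 0.046). These 3 genes had the same sign as in Bap1flox cells. The 2 comparisons use separate libraries, but same-numbered libraries of the genotypes deviated together, so they are not independent.

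The other genes did not pass in Bap1LysM cells. Ezh1 was at 100, 72.4 and 96.7 CPM in BMMs and at 64.5 and 43.5 CPM in preOCs (-0.74 ± 0.23, SE, edgeR adjusted p = 0.071). Ezh2 was at 26.2, 37.8 and 24.8 CPM and at 34.0 and 36.7 CPM, which overlap (0.25 ± 0.22, SE, adjusted p = 0.44). Bmi1 stood at 0.68 (adjusted p = 0.051), Kdm6b at 0.90 (0.059), Suz12 at 0.37 (0.15), Kdm6a at -0.16 (0.49) and Ring1 at 0.09 (0.72). The calls depended on single libraries: none of the 10 passed without Bap1LysM BMM 2, without Bap1LysM BMM 3 or without Bap1LysM preOC 2. Without both libraries numbered 1, an alternative chosen after seeing the data, 32.6% of genes were called and 5 of the 10 passed: Ezh1 (-0.94, adjusted p = 0.015), Rnf2 (-0.86, 0.023), Kdm2b (-0.97, 0.012), Bmi1 (0.84, 0.018) and Kdm6b (1.26, 0.0044). Eed was then at 0.45 (adjusted p = 0.11).

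Whether the RANKL response differed between the genotypes was tested as an interaction over the 11 libraries numbered 1 to 3. edgeR called 0 of 13635 genes, 0% of those tested, although 1718 (12.6%) had an unadjusted p under 0.05. voomWithQualityWeights called 0, DESeq2 113 and the edgeR fit of all 17 libraries 288. Among the 10 genes, 2 had an unadjusted p under 0.05. The interaction of Ezh2 was -0.80 ± 0.32 on the log2 scale (SE, unadjusted p = 0.030, adjusted p = 0.36), and that of Kdm6b was 0.94 ± 0.39 (SE, unadjusted p = 0.038, adjusted p = 0.37). That of Kdm6b was 0.47 without Bap1LysM preOC 2, and Ezh2 was at -0.57 without Bap1LysM BMM 2. Without both Bap1LysM libraries numbered 1, which leaves preOC 2 as the only Bap1LysM preOC, Kdm6b was at 1.28 and Ezh2 at -0.83. The remaining 8 lay between -0.21 and 0.44, with adjusted p from 0.49 to 0.99. A difference in the RANKL response was not shown for any of the 10 genes.

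Ezh2 varied together with cell cycle genes. The 26 cell cycle genes summed to 1105 to 1561 CPM in Bap1flox BMMs, 1778 to 2882 CPM in Bap1LysM BMMs, 2951 to 3557 CPM in Bap1flox preOCs and 2211 to 2643 CPM in Bap1LysM preOCs, with none at 0 in any library. Ezh2 followed the same order of group means, at 19.0 ± 4.25 and 29.6 ± 7.10 CPM in Bap1flox and Bap1LysM BMMs (SD, n = 3) and 41.4 ± 5.15 and 36.7 ± 3.23 CPM in Bap1flox and Bap1LysM preOCs (SD, n = 6 and 5). In Bap1LysM BMM 2 both the cell cycle sum, 2882 CPM, and Ezh2, 37.8 CPM, reached values of preOCs. In edgeR, 25 of the 26 rose with RANKL in Bap1flox cells (median log2 fold change 1.31), against 31.7% of all genes tested. In Bap1LysM preOCs 12 were lower and none higher (median -0.42), against 8.67% of all genes lower. Without Bap1LysM preOC 1, 20 were lower, in a fit that called 3072 genes in place of 2040. None passed between genotypes in BMMs (median 0.68), where 14 had an unadjusted p under 0.05, against 26.2% of all genes tested. Ezh1 ran the other way, highest in Bap1flox BMMs at 97.2 ± 9.99 CPM (SD, n = 3). The part of cell division in the values of Ezh1 and Ezh2 was not tested.

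**Figure D3:**
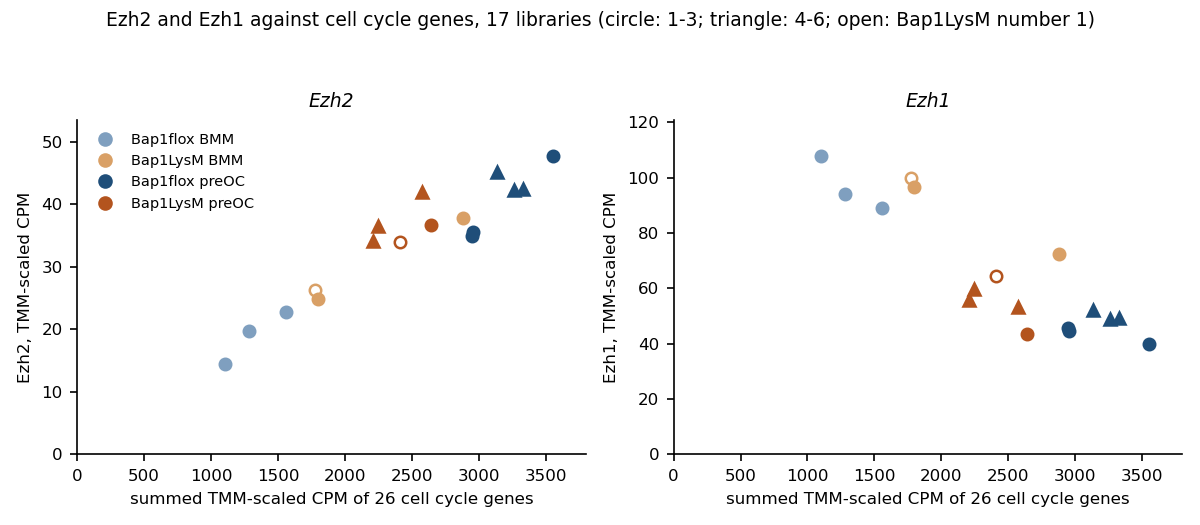
Ezh2 (left) and Ezh1 (right) in TMM-scaled CPM against the summed TMM-scaled CPM of 26 cell cycle genes, 1 point per library and all 17 libraries in each panel. Ezh2 is lowest, at 14.4 CPM, where the sum is lowest, at 1105 CPM, and highest, at 47.8 CPM, where the sum is highest, at 3557 CPM, and Ezh1 has its highest and lowest values, 108 and 40.0 CPM, in those same libraries.

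The genes with a pattern most like that of Ezh2 over the 17 libraries, by Pearson r of log2 CPM among 13376 genes, were Fignl1 (0.979), Ssrp1 (0.977), Shcbp1 (0.977), Mcm4 (0.976) and Jpt2 (0.974). For Ezh1 they were Man2b1 (0.984), Slc40a1 (0.982), Hexa (0.979), Zfyve1 (0.979) and Rab5b (0.978). Kdm6b had no such close partner, the nearest being Gm4784 (0.887), Phactr1 (0.843), Ccdc88b (0.839), Ptprs (0.832) and Gba2 (0.831). These values describe 17 libraries that share culture, library set and RANKL groups.

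A ratio of paralogues inside a library does not depend on its scaling. Ezh2 was 0.240 ± 0.0743 of Ezh1 by RPKM in Bap1flox BMMs and 0.416 ± 0.182 in Bap1LysM BMMs (SD, n = 3). It was 1.07 ± 0.186 in Bap1flox preOCs (SD, n = 6) and 0.812 ± 0.159 in Bap1LysM preOCs (SD, n = 5). As a share of the summed RPKM of both, Ezh2 made up 13.8% to 23.5% and 23.6% to 38.5% in BMMs and 48.0% to 59.0% and 38.8% to 50.3% in preOCs of Bap1flox and Bap1LysM, so no BMM reached a preOC.

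Between preOC genotypes the log2 ratio of Ezh2 to Ezh1 differed by -0.40 (two-sided exact permutation test, p = 0.035), but not after Benjamini-Hochberg adjustment over the 9 ratio tests (0.15). The genotypes overlapped, since Bap1LysM preOC 2 was at 1.01 and Bap1flox preOC 3 at 0.923. Permuting within library sets gave an exact p of 0.055. Inside numbers 1 to 3 the difference was -0.44 and inside numbers 4 to 6 it was -0.37, where all 3 Bap1LysM libraries were below all 3 Bap1flox libraries and the exact p of 0.10 is the smallest that 3 against 3 allow. Without Bap1LysM preOC 1 it was -0.32 (exact p = 0.076), and without Bap1flox preOC 1 it was -0.32 (exact p = 0.063). Leaving out Bap1flox preOC 4, 5 or 6 gave -0.41 (exact p = 0.056) and leaving out Bap1LysM preOC 4 or 5 gave -0.37 (exact p = 0.076).

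Against BMMs, the log2 ratio of Ezh2 to Ezh1 was 2.23 higher in Bap1flox preOCs 1 to 3, a 4.69-fold change, and it was 0.77 higher in Bap1LysM than in Bap1flox BMMs (0.43 without Bap1LysM BMM 2 and 0.50 without Bap1flox BMM 1). With all libraries, both had the smallest exact p of that design, 0.10, and an adjusted p of 0.15. The Rnf2 to Ring1 ratio was 0.76 lower on the log2 scale in Bap1flox preOCs 1 to 3 than in BMMs, and the Kdm6b to Kdm6a ratio was 1.03 lower in Bap1LysM than in Bap1flox BMMs, at 0.681 ± 0.0800 against 1.39 ± 0.140 (SD, n = 3), again with the exact p at 0.10.

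**Figure D4:**
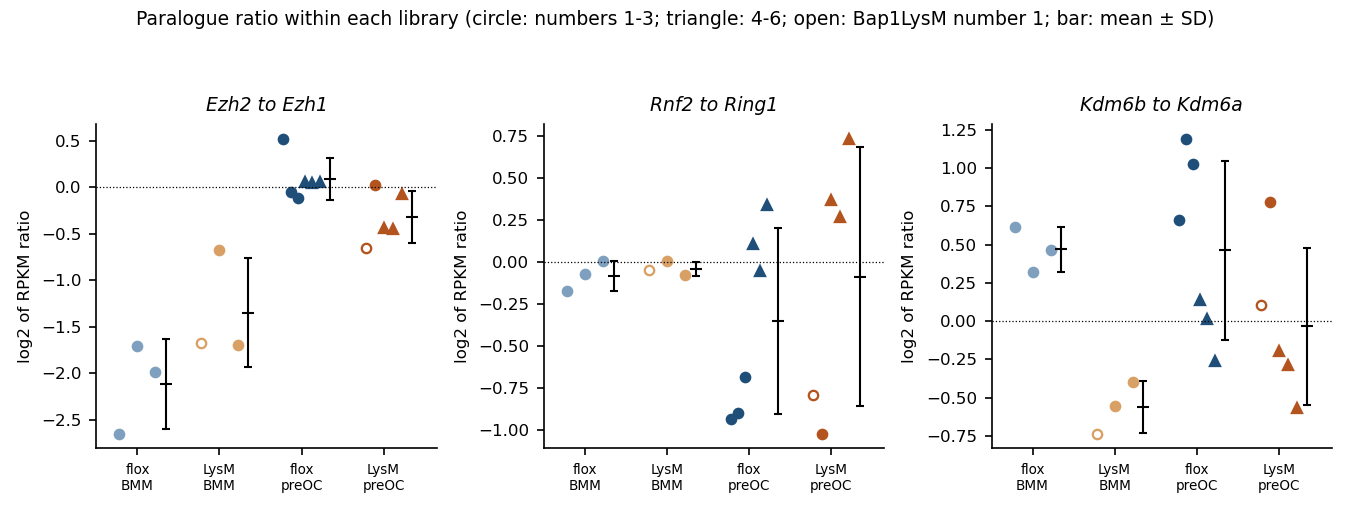
Log2 ratio of RPKM within each library (vertical axis, 0 means equal) for Ezh2 to Ezh1, Rnf2 to Ring1 and Kdm6b to Kdm6a, by group, with the mean and SD beside the points. Ezh2 to Ezh1 is below 0 in all 6 BMMs, the preOCs lie between -0.657 in Bap1LysM preOC 1 and 0.522 in Bap1flox preOC 1, and for Rnf2 to Ring1 and Kdm6b to Kdm6a the preOCs of each genotype split by library set.

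Several genes also differed between the library sets. In both genotypes preOCs 4 to 6 were above preOCs 1 to 3 without overlap for Rnf2, Eed, Suz12, Bmi1 and Kdm6a, and below them for Ring1. These are 6 of the 10 genes, against 41.1% of all 12919 genes tested that were apart in the same direction within each genotype. Rnf2 was at 19.7 to 22.3 CPM in Bap1flox preOCs 1 to 3 and at 30.6 to 36.3 CPM in preOCs 4 to 6, 1.56 times higher by their means, and the same ratio was 1.95 in Bap1LysM preOCs. Ring1 of preOCs 4 to 6 stood at 0.791 and 0.759 times that of preOCs 1 to 3 in Bap1flox and Bap1LysM. For Kdm2b the sets overlapped in both genotypes. Since BMMs have numbers 1 to 3 only, the RANKL fold of Rnf2 applies to that set.

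Reads over exons shared with a gene on the other strand could enter some counts. Ezh2, Eed, Suz12, Rnf2, Kdm2b and Kdm6b have 158 to 286 such bases each, in exon models of 2218 to 11818 bases, and whether counting used strand is not given in the sources used here. Ezh1, Ring1, Bmi1 and Kdm6a have none.

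The wider complexes were counted without the 10 genes. With RANKL in Bap1flox cells, where 64.6% of all genes were called, 7 of 10 other PRC2 subunits tested rose and 1 fell, with a median log2 fold change of 0.65 against -0.05 over all genes. Jarid2, which guides PRC2 to its targets, went from 45.4 ± 3.38 to 181 ± 21.4 CPM (SD, n = 3; log2 fold change 1.97), and Aebp2, another cofactor of the same PRC2 form, from 51.0 ± 2.22 to 124 ± 8.14 CPM (1.26). Epop and the Polycomb-like Phf19 also rose (1.32 and 1.07), while Phf1, a second Polycomb-like protein, fell from 70.3 ± 1.86 to 16.0 ± 0.908 CPM (-2.16). All these passed the edgeR test, with adjusted p from 2.8e-06 to 0.0022.

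Of 27 other PRC1 subunits, 5 rose and 13 fell with RANKL, with a median of -0.37. This share of called genes and those of the next lists are near the 64.6% of all genes. Cbx6, a reader of H3K27 methylation, fell most, from 61.3 ± 4.48 to 27.8 ± 4.26 CPM (log2 fold change -1.16, edgeR adjusted p = 0.0002). Among the H3K27 demethylases, acetyltransferases and partners of UTX, 1 of 8 rose and 4 fell, and among the H2A deubiquitinases and PR-DUB partners 3 of 12 rose and 4 fell. Ogt, the PR-DUB partner that attaches GlcNAc to proteins, fell from 237 ± 38.5 to 99.0 ± 8.25 CPM (-1.28, adjusted p = 0.00014).

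In preOCs, 15.8% of all genes were called between the genotypes. Of the 27 other PRC1 subunits, 3 were higher and 4 lower in Bap1LysM, and the median was 0.00. Bcor, the scaffold of the PRC1 form that holds KDM2B, was 54.4 ± 6.75 CPM in Bap1flox (SD, n = 6) and 95.4 ± 20.5 CPM in Bap1LysM (SD, n = 5), without overlap (log2 fold change 0.80, edgeR adjusted p = 0.0033), and Fbrsl1 was 0.60 higher (adjusted p = 0.011). Cbx6 (-1.30), Pcgf6 (-0.97) and Phc1 (-0.45) were lower, with adjusted p of 0.030, 0.020 and 0.015.

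Of the 10 other PRC2 subunits tested, 2 were higher and 1 was lower in Bap1LysM preOCs, against 15.8% of all genes called: Lcorl (0.71, edgeR adjusted p = 0.044), Lcor (0.44, 0.026) and Phf19 (-0.75, 0.042). Among UTX partners and acetyltransferases, 3 of 8 were higher and none lower, with a median of 0.28. Kmt2c, a methyltransferase of the complex that holds UTX, was 52.4 ± 7.30 CPM in Bap1flox and 72.3 ± 7.31 CPM in Bap1LysM preOCs without overlap (0.45, adjusted p = 0.020). Of the PR-DUB list, 3 of 12 were higher and none lower. Asxl2, the binding partner of BAP1, was 57.3 ± 5.24 and 80.5 ± 6.16 CPM, without overlap (0.48, adjusted p = 0.0026), and Mbd5 was 0.62 higher (adjusted p = 0.014). Each of these genes named in preOCs also passed without Bap1LysM preOC 1, with adjusted p from 0.00033 to 0.033.

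**Figure D5:**
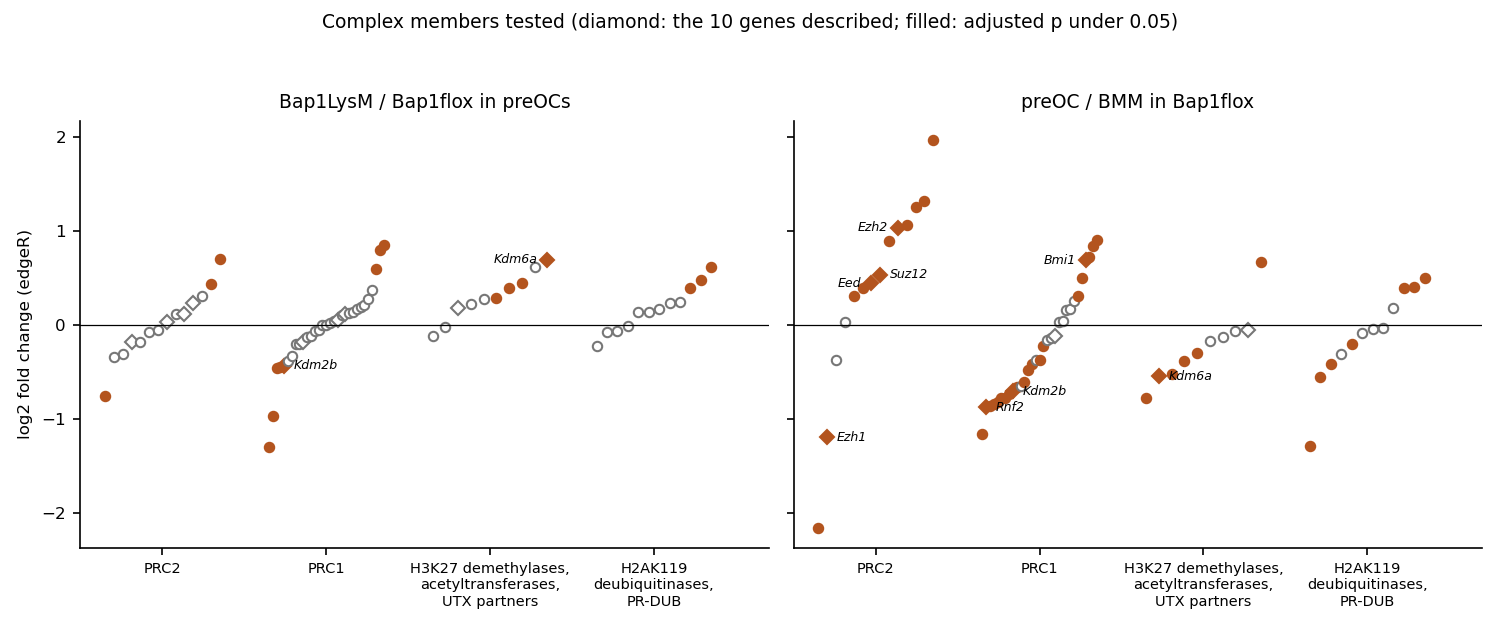
The edgeR log2 fold change (vertical axis) of each tested gene of 4 lists of complex members, for Bap1LysM over Bap1flox in preOCs and for preOC over BMM in Bap1flox cells, with the 10 genes described drawn as diamonds and genes past the adjusted p filled. With RANKL, Phf1 at -2.16 and Ezh1 at -1.19 are the only called PRC2 genes below 0, and the spread between genotypes is smaller.

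Of 12 genes described as Polycomb targets in myeloid cells, 8 passed the test with RANKL in Bap1flox cells, a share near the 64.6% of all genes. Of these, 2 rose, Nfatc1 (126 ± 20.8 to 555 ± 97.3 CPM, SD, n = 3, log2 fold change 2.11) and the cell cycle inhibitor Cdkn2b (2.08 ± 0.927 to 5.81 ± 1.86 CPM, 1.46), and 6 fell. Irf8, an inhibitor of osteoclast formation, fell from 261 ± 12.4 to 61.4 ± 2.03 CPM (-2.11), and Hoxa7 from 3.63 ± 0.312 to 1.55 ± 0.549 CPM (-1.25). The edgeR adjusted p of these 4 genes lay between 2e-06 and 0.014. In Bap1LysM against Bap1flox preOCs 0 of 11 tested passed the edgeR test (1 lower without Bap1LysM preOC 1) and 2, Irf8 (0.44) and Cdkn1a (0.50), had an unadjusted p under 0.05, as had 30.4% of all genes tested, with a median log2 fold change of -0.17.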

How the data were processed

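RNA-seq of 17 libraries was analysed. The authors aligned reads with STAR 2.5.1a to GRCm38 (Ensembl release 76) and counted them per gene with featureCounts 1.4.6-p5. The deposited values are raw counts, CPM and RPKM per gene. The deposited CPM and RPKM, divided by the library total and exon length, set the filter and the comparison between genes. The members and gene lists were chosen with earlier results of these data known.

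Counts were tested with edgeR 4.0.16 (R 4.3.3), quasi-likelihood with TMM factors, after leaving out 355 rRNA genes and genes not above 1 CPM in 2 to 4 libraries, depending on the comparison. No row named no gene, and 40340 of 41388 IDs had a symbol. P-values were adjusted by Benjamini-Hochberg over all genes tested, with a threshold of 0.05. Ratios of RPKM were tested on the log2 scale, with no pseudocount (0.5 as an alternative), by two-sided exact permutation tests. Besides the 10 genes, the text names, for preOC genotype and for RANKL in Bap1flox, at most 12 called genes of the complex and target lists by size of change, and the 5 genes most alike Ezh1, Ezh2 and Kdm6b. Some genes that this rule names are not reported here.

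Same-numbered libraries deviated together (r of 0.36 to 0.71 in preOCs, 0.31 to 0.50 in BMMs, 0.23 to 0.37 between Bap1flox BMMs and preOCs, 0.35 and 0.50 between Bap1LysM BMMs and preOCs), so fits with the number as a block were also made. Within preOCs 4 to 6, r was -0.15 to 0.03 once the set mean was removed. DESeq2 1.42.0, limma 3.58.1 (voomWithQualityWeights), other factors, other filters, library subsets and each library left out were alternatives.

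On simulated counts with 200 genes changed 2-fold, edgeR recovered 72% in preOCs (12756 genes), 51% in BMMs (12826), 71% for RANKL in Bap1flox (13154), 5% for RANKL in Bap1LysM (12794) and 22.5% for the interaction (13350). Of its calls, 4%, 8.9%, 5.3%, 28.6% and 4.3% were false, in the same order. The simulation changed fewer genes than most of these comparisons called and held no library set or replicate effects, so these shares need not hold for the data.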

Additional observations from a re-analysis of the deposited data

Results flagged for a closer look

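Of 26 groups of values tested, 2 held a library far from the others by Dixon's criterion, where chance gives about 1 in 20 groups. Eed was highest in Bap1LysM preOC 6, at 54.1 CPM, while the other 4 Bap1LysM preOCs were at 39.6 to 42.5 CPM. The ratio of Ezh2 to Ezh1 was highest in Bap1flox preOC 1, at 1.44, while the other 5 Bap1flox preOCs were at 0.923 to 1.04.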

How the results depend on the processing

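No call reversed its direction. The 8 calls with RANKL in Bap1flox cells held with the replicate block. Of the 10 genes, edgeR called 2 in preOCs between genotypes, voomWithQualityWeights 4, the replicate block 3 and numbers 1 to 3 alone 0 (2 to 3 with each library left out). In BMMs it called 0, and DESeq2 1, no filter on low counts 1 and the replicate block 2 (0 to 0 with each library left out). With RANKL in Bap1LysM cells it called 3, voomWithQualityWeights 1, DESeq2 6, no filter 5, all 17 libraries together 6, and 2, 0 and 0 without Bap1LysM BMM 1, 2 and 3. There the replicate block, with 2 pairs, gave 3, with Ezh1 in (-0.70, adjusted p = 0.025) and Eed out (0.49, adjusted p = 0.067). The Ezh2 to Ezh1 difference of -0.40 in preOCs became -0.44 with the replicate block (exact p = 0.12) and in numbers 1 to 3 (0.60), -0.37 in numbers 4 to 6 (0.10) and -0.40 permuted within sets (0.055), with -0.49 to -0.32 on leaving out each library. Rnf2 to Ring1 in preOCs went from 0.26 to -0.07 in numbers 1 to 3, and in BMMs from 0.04 to between -0.01 and 0.08 on leaving out each library. Kdm6b to Kdm6a in preOCs went from -0.50 (exact p = 0.17) to -0.42 within sets (0.040) and -0.38 with the replicate block (0.062). On leaving out each library it was -0.70 to -0.35 (exact p from 0.067 to 0.31). The causes were not tested. Of the other values for single genes, 756 kept direction and side of the threshold, 27 newly passed, 23 no longer passed and 34 changed sign without a call.

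Over all genes, the preOC count of 2040 was 7093 by voomWithQualityWeights, 4233 with the block, 4345 with a library set term, 4282 in numbers 4 to 6, 0 in numbers 1 to 3 and 1067 to 3072 with each library left out. The BMM count of 693 was 1772 by voomWithQualityWeights, 2065 by DESeq2, 2107 with the block and 4 to 756 with each library left out. The count for RANKL in Bap1LysM of 2550 was 3996 by DESeq2, 1667 by voomWithQualityWeights, 6694 with all libraries and 63 to 3336 with each library left out. The interaction count of 0 became 2 without Bap1LysM preOC 1, rose above DESeq2's 113 without Bap1LysM preOC 2, and was 288 with all 17 libraries.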
